A study of Mus musculus with 18 samples.

Results

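The genes described here encode the integrins and the laminins of the mouse. They are the protein-coding genes of the deposited count table whose symbols name an integrin alpha subunit, an integrin beta subunit or a laminin alpha, beta or gamma chain. The rule found 37 genes among the 55450 gene IDs of the table: 18 integrin alpha genes, 8 integrin beta genes and 11 laminin genes. It used names only and no measured value. The RNA came from C2C12 cells, an established mouse myoblast line whose cells fuse into myotubes when confluent cultures are moved from fetal bovine serum to horse serum. There were 6 groups with 3 libraries each (replicates A, B and C), namely myoblasts in growth medium and myotubes on day 3 of differentiation from 3 lines. These were a control and lines that the labels call the overexpressor and the knockout of the imprinted Dlk1-Dio3 cluster, which encodes noncoding RNAs such as Meg3. The control was a sorted EGFP-positive population that had received the pX458 vector, a plasmid carrying Cas9 and EGFP, without guides, and the labels mark it px. Both edited lines were grown from single sorted cells that had received a pair of guides against the Meg3 promoter. The labels mark the overexpressor 2-4 and the knockout 2-7. Each edited genotype was 1 clone, so genotype and clone cannot be told apart. The labels call the replicates triplicate samples without saying that they were separate cultures, so the p-values measure only the spread between these samples.

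Integrins are receptors made of an alpha and a beta subunit that span the cell membrane and tie the matrix outside the cell to the actin cytoskeleton inside it. The alpha subunit largely sets the ligand: the alpha 3, 6 and 7 subunits bind laminins, the alpha 1, 2, 10 and 11 subunits bind collagens, and the alpha 5, 8, v and IIb subunits bind fibronectin, vitronectin and other proteins that carry the RGD motif. Laminins are trimers of an alpha, a beta and a gamma chain and form the sheet of the basement membrane that wraps each muscle fibre. Adult skeletal muscle is known for the integrin of alpha 7 with beta 1 and for the laminin that contains the alpha 2 chain, and mutations in the genes of either cause muscular dystrophies.

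Library totals ran from 41544358 to 79140702 counts. Meg3, the edited gene, was counted 5222 to 7763 times in each of the 6 libraries of the overexpressor and 0 times in the 12 others, so it does not check the label of the knockout. A count of 0 allows at most 3 counts, or 0.0375 to 0.0693 on the CPM scale (counts scaled to a common library size) depending on the library, for counting error only. The 8 myotube markers (Myog, Myh3, Ckm, Mymk, Mymx, Acta1, Tnnt3 and Casq2) summed to 252 to 385 CPM in control myoblasts, 438 to 722 in overexpressor myoblasts and 9417 to 12030 in knockout myoblasts. In myotubes the sums were 14290 to 14770 CPM for the control, 22610 to 24520 for the overexpressor and 30880 to 36640 for the knockout. The libraries labelled knockout myoblasts held myotube transcripts at a level between the other myoblasts and the myotubes, and the part of this in each result on knockout myoblasts was not tested. The 6 leukocyte markers summed to at most 2.63 CPM in any library, the 5 endothelial markers to at most 0.669 and the 5 epithelial markers to at most 2.38. The 4 adipocyte markers had higher sums. In myoblasts they were 10.52 to 12.76 CPM for the control, 19.06 to 19.71 for the overexpressor and 5.918 to 7.078 for the knockout. In myotubes they were 9.548 to 10.91 CPM, 7.251 to 8.355 and 3.743 to 4.456 in the same order. In each group only 1 or 2 of these 4 markers had more than 3 counts in every library, and 2 were tested. Against control, 1 was higher in overexpressor myoblasts and 1 lower in overexpressor myotubes. In the knockout 1 was lower in myoblasts, and 1 was higher and 1 lower in myotubes. The part of the adipocyte markers in the results was not tested. These are bulk samples, in which fewer cells of a type and less RNA per cell cannot be told apart.

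Of the 37 genes, 33 had enough counts to be tested. Itga2, Itgad and Itgax, which encode a collagen receptor subunit and leukocyte subunits, reached at most 6, 1 and 4 counts in a library. Lama3, which encodes the alpha 3 chain of epithelial laminins, reached at most 13 counts. These 4 genes did not pass the filter on low counts. Some tested genes, such as Itga1, had few or no counts in some groups and passed the filter through the others. Exons of Itga4, Itgb4, Itgav, Itga8, Lamc3 and Lama2 overlap with genes on the opposite strand over 3.86% to 8.04% of their length, and since strand use in counting is not given in the sources used here, reads of those genes may be included.

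Levels were compared between genes as CPM per kilobase of exon, with library sizes scaled by TMM factors. On this scale 26 of the 37 genes reached a mean of 0.5 in at least 1 group, and 11 did not. The integrin genes together summed to 485.5 to 493 CPM per kilobase in control myoblasts and 591.8 to 609.4 in control myotubes. The laminin genes together summed to 123 to 128.9 in control myoblasts and 152.7 to 162 in control myotubes. The size of both rises depends on the scaling, since the TMM factors were 1.06 to 1.084 in control myoblasts and 0.895 to 0.917 in control myotubes. In overexpressor myoblasts the laminin sum was higher, at 165.4 to 175.7, and in overexpressor myotubes lower, at 107.6 to 113.6, than in the control libraries of the same stage. In the knockout it was 105.4 to 110.9 in myoblasts and 96.8 to 102.5 in myotubes. At each stage, the 3 libraries of each line did not overlap with those of the others in the laminin sum, and the overexpressor stood highest among myoblasts and between the others among myotubes.

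The promoters of 4 members are shown, because these genes had opposite changes between stages (Itga3 and Itgb6) or between the overexpressor and the control (Itga10 and Itga11). They were taken from RefSeq on GRCm38.p6, which held an entry for 23 of the 37 genes. The E-box, spelled CANNTG, is the sequence that muscle regulatory factors such as MyoD and myogenin recognise, and each match reads the same pattern on both strands. It was searched in the 250 bases before the RefSeq start. Bases inside an annotated exon are not shown, so the stretches are 163 to 221 bases long, and capitals mark the matches.
Itga3 (chr11:95076802-95076964, minus strand): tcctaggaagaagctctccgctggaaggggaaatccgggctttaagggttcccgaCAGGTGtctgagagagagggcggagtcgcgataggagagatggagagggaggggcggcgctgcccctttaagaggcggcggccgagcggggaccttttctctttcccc
Itgb6 (chr2:60722644-60722853, minus strand): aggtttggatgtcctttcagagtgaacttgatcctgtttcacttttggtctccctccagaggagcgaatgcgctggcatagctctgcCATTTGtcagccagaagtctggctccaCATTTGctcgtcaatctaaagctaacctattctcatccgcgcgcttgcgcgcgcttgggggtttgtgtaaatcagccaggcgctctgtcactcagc
Itga10 (chr3:96645367-96645583, plus strand): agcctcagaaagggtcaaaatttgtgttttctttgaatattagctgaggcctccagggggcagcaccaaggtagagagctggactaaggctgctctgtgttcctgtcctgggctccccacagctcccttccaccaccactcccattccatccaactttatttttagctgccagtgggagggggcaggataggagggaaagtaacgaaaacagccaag
Itga11 (chr9:62677605-62677825, plus strand): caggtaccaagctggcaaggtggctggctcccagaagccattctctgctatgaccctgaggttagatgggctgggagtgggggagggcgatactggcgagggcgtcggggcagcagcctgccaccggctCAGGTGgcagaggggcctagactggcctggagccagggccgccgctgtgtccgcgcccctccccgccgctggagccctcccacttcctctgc
In the full 250 bases, Itga3 and Itga11 each had 1 match, CAGGTG in both. Itgb6 had 3 matches, CATTTG at 2 places and CACATG, the last outside the stretch shown. Itga10 had none. Of the 32851 RefSeq promoter windows of this length, 66.2% held at least 1 CANNTG, and 18 of the 23 members with an entry did. CAGCTG, a subset of CANNTG, was in 13% of all windows and in 6 of the 23. For Itga9, Lamb3, Lama2 and Itgb8 the whole window lay inside the gene, with the RefSeq start 105002, 94295, 2816 and 526 bases from the annotated start. Some other RefSeq starts lay inside the gene by less, by at most 239 bases, in Itga2b. Itga9, Lamb3, Lama2 and Itgb8 are all among the 18, and Itga9 and Lamb3 are also among the 6. The matches describe the letters only.

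Among the laminin-binding alpha subunits, Itga3 fell and Itga7 and Itga6 rose when control myoblasts became myotubes. Itga3, whose integrin is typical of epithelia and of proliferating cells, stood at 61.5, 58.9 and 63.5 CPM per kilobase in the control myoblast libraries and at 11.2, 11.1 and 9.85 in control myotubes. Itga7, the main laminin receptor subunit of muscle fibres, stood at 38.5, 39.2 and 38.1 in control myoblasts and at 149.9, 149 and 140.5 in control myotubes. The stages did not overlap for either gene. The log2 fold changes, given here and below with their standard errors from edgeR's quasi-likelihood test, were -2.52 ± 0.078 (adjusted p = 7.64e-15) and 1.92 ± 0.091 (adjusted p = 1.94e-12). Itga6, which pairs with beta 1 or beta 4, rose as well, and stood at 4.26, 4.31 and 4.51 CPM per kilobase in control myoblasts and 12.8, 11.7 and 13.8 in control myotubes, a log2 change of 1.55 ± 0.12 (adjusted p = 2.45e-09).

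Before differentiation, Itga3 was lower and Itga7 and Itga6 were higher in both edited lines than in the control. Itga3 stood at 40.8, 38.3 and 39.96 CPM per kilobase in overexpressor myoblasts and at 21.1, 19.5 and 20.8 in those of the knockout, all below the control, with log2 fold changes against control of -0.63 ± 0.073 and -1.58 ± 0.075 (adjusted p = 1.49e-06 and 5.41e-12). Itga7 stood at 95.99, 86.3 and 107 in those of the overexpressor and at 74.05, 89.4 and 80.2 in those of the knockout, all above the control. Its log2 fold changes were 1.321 ± 0.089 and 1.07 ± 0.089 (adjusted p = 9.82e-10 and 1.02e-08). These comparisons share the control libraries. For Itga6 the log2 fold changes were 0.84 ± 0.12 and 1.73 ± 0.12 (adjusted p = 1.46e-05 and 1.13e-09), and the knockout myoblasts, at 13.6, 14.9 and 14.9 CPM per kilobase, overlapped with control myotubes. The sum of the myotube markers, given above, was also higher in both sets of edited myoblasts than in control myoblasts, and its part in these differences was not tested.

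In myotubes the lines were closer. Itga7 reached 217, 208 and 208 CPM per kilobase in the overexpressor and 168, 178 and 211 in the knockout, against 140.5 to 149.9 in the control, with log2 fold changes of 0.53 ± 0.088 (adjusted p = 5.02e-05) and 0.34 ± 0.088 (adjusted p = 0.00222). Itga3 was at 8.81 to 12.9 in all 9 myotube libraries. The change from myoblast to myotube was smaller in the edited lines. For Itga7 it was a log2 change of 1.13 ± 0.089 in the overexpressor and 1.19 ± 0.089 in the knockout, and for Itga3 -1.77 ± 0.076 and -1.17 ± 0.075. The differences from the control response, tested as interactions, were -0.80 ± 0.12 (adjusted p = 4.74e-05) and -0.73 ± 0.12 (adjusted p = 0.000101) for Itga7 and 0.75 ± 0.10 (adjusted p = 1.41e-05) and 1.34 ± 0.10 (adjusted p = 8.99e-09) for Itga3. For Itga6 the knockout went the other way from the control. Its level fell by 0.46 ± 0.12 on the log2 scale from knockout myoblasts to myotubes (adjusted p = 0.00208), and the interaction was -2.01 ± 0.17 (adjusted p = 2.18e-08).

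**Figure D1:**
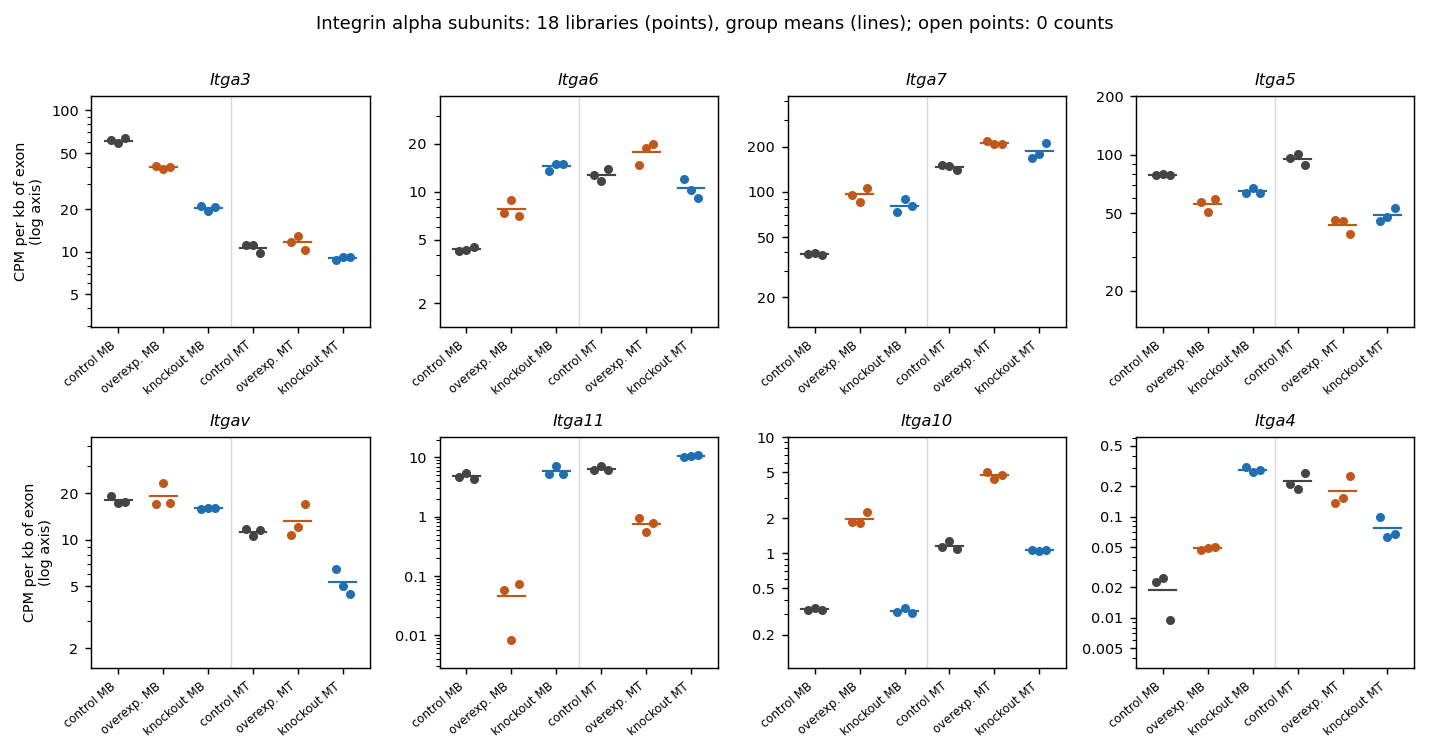
Levels of 8 integrin alpha genes in CPM per kilobase of exon (log axis) in the 18 libraries (points) of myoblasts (MB) and day 3 myotubes (MT), with group means as lines, grey for control, orange for overexpressor and blue for knockout. Of the 6 groups, control myoblasts have the highest level of Itga3 and the lowest of Itga7, and Itga11 is low in the overexpressor at both stages.

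Expressed as shares of the summed level of Itga3, Itga6 and Itga7, the laminin-binding class changed its leading member. Itga7 made up 37.0% ± 1.2 of the sum in control myoblasts, 66.9% ± 2.4 in those of the overexpressor and 69.8% ± 2.1 in those of the knockout (SD, n = 3). In myotubes it made up 86.2% ± 0.58, 87.7% ± 1.3 and 90.4% ± 1.5 in the same order. Itga3 fell short of Itga7 in every group except control myoblasts, where it made up 58.8% ± 1.2. That order depends on the gene length used, since with the length of the longest transcript Itga3 made up 45.3% and Itga7 48.9% there. The Itga7 shares of the control myoblast libraries did not overlap with those of any other group. With 3 libraries against 3 the exact permutation test cannot go below p = 0.1, so the shares are given as a description.

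Of the subunits that bind RGD ligands, Itga5 and Itgav, which encode receptors of fibronectin and vitronectin, were abundant, and both ended lower in knockout than in control myotubes. Itga5 was at 78.3, 79.7 and 78.98 CPM per kilobase in control myoblasts, 96.6, 100.4 and 89.1 in control myotubes, 46.1, 45.7 and 39.1 in overexpressor myotubes and 45.9, 48.02 and 53.04 in knockout myotubes. Both edited sets of myotubes lay below every control library, by log2 fold changes of -1.13 ± 0.077 (adjusted p = 5.02e-10) and -0.96 ± 0.076 (adjusted p = 3.73e-09). The edited myoblasts were also below every control library, at 50.8 to 59.2 CPM per kilobase for the overexpressor and 63.3 to 67.7 for the knockout. In control cells Itga5 rose slightly with differentiation, by 0.27 ± 0.076 (adjusted p = 0.00442), and this call was lost when library totals replaced the TMM factors (log2 change 0.029, adjusted p = 0.742). In both edited lines Itga5 fell, by log2 changes of -0.35 ± 0.076 and -0.41 ± 0.076, and the interactions were -0.62 ± 0.11 and -0.68 ± 0.11 (adjusted p = 0.000128 and 4.74e-05).

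Itgav fell in knockout cells from 15.8, 16.1 and 15.97 CPM per kilobase in myoblasts to 6.48, 5.05 and 4.46 in myotubes, a log2 change of -1.58 ± 0.17 (adjusted p = 7.05e-07). The control fell by less, from a range of 17.3 to 19.2 to one of 10.6 to 11.7, and the interaction was -0.91 ± 0.23 (adjusted p = 0.00406). In overexpressor myotubes the 3 libraries were spread, at 10.7, 12.1 and 17.1, with replicate C the highest. Itga2b, the subunit of the platelet fibrinogen receptor, had lower levels. It stood at 1.14, 1.21 and 1.39 in knockout myotubes and at 0.383 to 0.927 in the other 15 libraries, and the log2 difference between knockout and control myotubes was 1.24 ± 0.16 (adjusted p = 1.64e-06). In the knockout it rose with differentiation, by 1.498 ± 0.16 (adjusted p = 2.24e-07), whereas in the control it fell by 0.61 ± 0.16. Itga8, which is known from smooth muscle and kidney mesenchyme, had 0 to 40 counts per library. It was highest in knockout myoblasts, at 39, 33 and 35 counts, and in control myotubes, at 40, 30 and 30, and lowest in overexpressor myoblasts, at 0, 1 and 6. The log2 difference between overexpressor and knockout myoblasts was -3.70 ± 0.62 (adjusted p = 6.22e-05), and it was -5.76 without overexpressor replicate C. Of the 8 calls on Itga8, 5 were lost in at least 1 alternative analysis.

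Of the collagen-binding subunits, Itga11 was lower and Itga10 higher in the overexpressor than in the other lines at both stages. Itga11, the receptor subunit for fibrillar collagen in fibroblast-like cells, stood at 4.73, 5.42 and 4.40 CPM per kilobase in control myoblasts and at 0.0584, 0.00841 and 0.0721 in overexpressor myoblasts, or 15, 2 and 16 counts. The log2 fold change was -6.70 ± 0.32 (adjusted p = 8.47e-11), and the groups were far apart. In overexpressor myotubes it stood at 0.949, 0.563 and 0.785, a rise of 4.04 on the log2 scale, still below the control myotubes at 6.24, 7.20 and 6.09, with a log2 difference of -3.09 ± 0.22 (adjusted p = 6.24e-09). The knockout was at 5.19 to 7.21 in myoblasts, where the test against control was not passed, and at 10.3 to 11.2 in myotubes, a log2 change against control of 0.71 ± 0.20 (adjusted p = 0.00501).

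Itga10, another collagen receptor subunit known from cartilage, moved the opposite way in the overexpressor. It was at 1.85, 1.82 and 2.26 CPM per kilobase in overexpressor myoblasts against 0.309 to 0.341 in the other 6 myoblast libraries, a log2 fold change over control of 2.58 ± 0.11 (adjusted p = 2.12e-12). In myotubes it was at 5.03, 4.34 and 4.76 in the overexpressor and at 1.05 to 1.27 in the other lines, a log2 fold change over control of 2.02 ± 0.10 (adjusted p = 7.29e-12). Itga10 rose with differentiation in every line, with log2 changes of 1.81 ± 0.11 for the control, 1.25 ± 0.098 for the overexpressor and 1.72 ± 0.11 for the knockout. Of its exons, 33.5% overlap on the same strand with the annotated gene Gm42957, so reads of the 2 genes can be mixed.

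Itga1, whose product prefers basement membrane collagen, was at a low level in the control and lower in both edited lines. Control myoblasts held 94, 102 and 91 counts and control myotubes 209, 160 and 230, whereas overexpressor myoblasts held 0, 0 and 0, knockout myoblasts 1, 0 and 1 and knockout myotubes 2, 0 and 0. Against a floor of 3 counts over the group, Itga1 was at least 88.9-fold lower in overexpressor than in control myoblasts. From the summed counts it was lower by a factor of 150 in knockout myoblasts (95% counting interval 41.3 to 1250) and of 328 in knockout myotubes (90.3 to 2710). Overexpressor myotubes held 8, 2 and 10 counts, also below the control, with a log2 difference of -5.38 ± 0.36 (adjusted p = 1.86e-09).

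Itga4, a subunit that binds VCAM-1 and fibronectin and is known from migrating myoblasts and leukocytes, stayed under 0.5 CPM per kilobase. Control myoblasts held 17, 18 and 6 counts and knockout myoblasts 200, 211 and 225, a log2 difference of 3.89 ± 0.30 (adjusted p = 4.08e-09). It rose in the control to 156, 115 and 209 counts in myotubes, by 3.52 ± 0.30 (adjusted p = 9.86e-09), and fell in the knockout to 81, 53 and 45, a log2 change of -1.91 ± 0.25 (adjusted p = 2.67e-06). The interaction was -5.43 ± 0.39 (adjusted p = 3.22e-09), as the lines moved in opposite directions. Itga9, which binds tenascin and osteopontin, had 0 to 3 counts in every myoblast library, 38, 25 and 41 in control myotubes, 5, 8 and 13 in overexpressor myotubes and 56, 48 and 42 in knockout myotubes. From the summed counts its rise was by a factor of 20.6 in the control (95% counting interval 8.54 to 64.7) and 27.7 in the knockout (11.6 to 86.6).

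The leukocyte subunits were at trace levels. Itgae, Itgal and Itgam had at most 25, 47 and 43 counts in a library. Itgam was highest in knockout myotubes, with 43, 34 and 31 counts against 5, 3 and 4 in control myotubes, a log2 difference of 3.01 ± 0.39 (adjusted p = 4.85e-06). Since 68.7% of its exons overlap on the same strand with Gm49368, these counts are uncertain. Itgal was highest in overexpressor myotubes, with 47, 37 and 31 counts against 4, 5 and 4 in control myotubes, a log2 difference of 2.59 ± 0.51 (adjusted p = 0.000281). Ptprc, the defining leukocyte marker, had 0 counts in all 6 control libraries and 0 to 11 elsewhere. The sum of the 6 leukocyte markers was lower in both edited sets of myotubes, at 0.764 to 1.29 CPM for the overexpressor and 1.15 to 1.35 for the knockout, than in control myotubes, at 2.08 to 2.29. Of the 3 leukocyte markers tested, 2 were lower in overexpressor than in control myotubes, and 2 were lower and 1 higher in knockout myotubes.

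Among the beta subunits, Itgb1, the partner of most alpha subunits above, had the highest level in every group. It stood at 193, 194 and 201 CPM per kilobase in control myoblasts and at 223, 207 and 255 in control myotubes, and the test between the stages was not passed. It held between 68.4% and 75.8% of the summed beta level on average in the 6 groups. The libraries of overexpressor myotubes were spread, at 183, 208 and 288, with replicate C highest, as for Itgav, Itgb6 and Itgb8. This replicate also stood apart over the tested genes. The chi-square statistic per degree of freedom between the counts of 2 libraries was 114.5 and 109.9 for C against A and B. It was 22.23 for A against B and at most 52.85 within any other group. In the knockout Itgb1 fell from 258, 263 and 257 to 198, 156 and 149, a log2 change of -0.63 ± 0.14 (adjusted p = 0.001), and the interaction was -0.85 ± 0.20 (adjusted p = 0.00223). Itgb1 differed by 0.41 ± 0.14 between knockout and control myoblasts and by -0.44 ± 0.14 between the myotubes, on the log2 scale. These calls were lost in 4 and 2 of the alternative analyses, with an adjusted p of up to 0.0773 and 0.0575. Itgb5, the other abundant beta subunit and a partner of alpha v, was at 51.2 to 76.7 CPM per kilobase in the 18 libraries.

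Itgb3, a partner of alpha v and alpha IIb, fell with differentiation in all 3 lines, and more in the edited ones. The control went from 18.1, 19.1 and 19.4 CPM per kilobase in myoblasts to 10.9, 10.4 and 9.74 in myotubes, the overexpressor from 26.4, 25.2 and 26.7 to 5.37, 5.92 and 4.34, and the knockout from 14.3, 15.4 and 15.3 to 4.34, 3.91 and 4.07. The log2 changes were -0.87 ± 0.086, -2.32 ± 0.089 and -1.87 ± 0.089, and no library of one stage reached the range of the other within a line. The interactions were -1.45 ± 0.12 (adjusted p = 2.48e-08) for the overexpressor and -0.997 ± 0.12 (adjusted p = 2.48e-06) for the knockout.

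Itgb6 and Itgb8, whose products pair with alpha v and are known for activating latent TGF-beta, were higher in the edited lines. Itgb6 was at 0.287, 0.303 and 0.294 CPM per kilobase in control myoblasts, 1.36, 1.40 and 1.52 in those of the overexpressor and 1.85, 2.42 and 1.83 in those of the knockout. The log2 fold changes over control were 2.28 ± 0.14 and 2.79 ± 0.14 (adjusted p = 2.44e-10 and 1.07e-11), and the knockout myoblasts overlapped with control myotubes, at 2.06, 2.02 and 2.16. In overexpressor myotubes Itgb6 reached 6.07, 6.07 and 8.30, or 1.71 ± 0.12 (adjusted p = 1.07e-09) over control on the log2 scale. Its rise with differentiation was 2.82 ± 0.14 in the control and 0.67 ± 0.12 in the knockout, an interaction of -2.15 ± 0.18 (adjusted p = 2.7e-08). The 5 epithelial markers summed to 0.356 to 0.487 CPM in control myoblasts, 0.0216 to 0.254 in overexpressor myoblasts and 0.382 to 0.57 in knockout myoblasts. In myotubes the sums were 0.549 to 1.05 CPM for the control, 1.15 to 1.37 for the overexpressor and 1.96 to 2.38 for the knockout, so they were higher in both edited sets of myotubes, as Itgb6 was. Only 1 of the 5 was tested. It was higher in knockout than in control myotubes, and the test between overexpressor and control myotubes was not passed. Epcam, the defining epithelial marker, had 0 counts in all 18 libraries, and the part of the other markers in the result was not tested.

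Itgb8 was at 1.64, 2.11 and 1.77 CPM per kilobase in overexpressor myoblasts and 1.36, 1.73 and 3.09 in overexpressor myotubes, against 0.386 to 0.429 and 0.157 to 0.199 in the control. Over control, Itgb8 differed on the log2 scale by 2.16 ± 0.23 (adjusted p = 9.05e-07) in myoblasts and 3.49 ± 0.25 (adjusted p = 2.98e-09) in myotubes. The knockout lay between these lines at both stages, at 1.01, 0.993 and 0.924 in myoblasts and 0.486, 0.395 and 0.363 in myotubes, with log2 differences from control of 1.25 ± 0.23 (adjusted p = 0.000191) and 1.18 ± 0.245 (adjusted p = 0.000456). Itgb8 fell with differentiation in the control and in the knockout, with log2 changes of -1.17 ± 0.25 and -1.23 ± 0.23. In the overexpressor the test between the stages was not passed, and the interaction was 1.33 ± 0.32 (adjusted p = 0.00358).

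Itgb4 and Itgb7 were myoblast genes that fell in every line. Itgb4, the partner of alpha 6 in hemidesmosomes, stood at 1.31, 1.24 and 1.54 CPM per kilobase in overexpressor myoblasts, 0.563, 0.559 and 0.498 in control myoblasts and 0.132, 0.114 and 0.124 in those of the knockout, and the 3 groups did not overlap. Its log2 fold changes over control were 1.34 ± 0.16 (adjusted p = 1.43e-06) and -2.13 ± 0.18 (adjusted p = 1.25e-08). Itgb7, a partner of alpha 4 known from lymphocytes, stood in the same order, at 2.20 to 2.37 in the overexpressor, 1.01 to 1.31 in the control and 0.173 to 0.248 in the knockout, with log2 fold changes over control of 1.04 ± 0.20 (adjusted p = 0.000298) and -2.47 ± 0.23 (adjusted p = 5.66e-08). All 9 myotube libraries held 1 to 12 counts of Itgb7, and its log2 change was -5.03 ± 0.31 for the control, -5.90 ± 0.28 for the overexpressor and -2.79 ± 0.37 for the knockout.

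Itgb2, the shared beta subunit of leukocyte integrins, was a gene of control myotubes. It was at 2.84, 2.84 and 2.25 CPM per kilobase there, 0.296, 0.345 and 0.205 in knockout myotubes and 0.122, 0.102 and 0.0865 in overexpressor myotubes, and at most 0.139 in any myoblast library. The log2 fold changes against control myotubes were -4.67 ± 0.23 (adjusted p = 5.34e-12) and -3.21 ± 0.21 (adjusted p = 2.1e-10), and the rise in the control was 4.59 ± 0.24 (adjusted p = 6.38e-12). The leukocyte marker sum was also higher in control myotubes than in the edited ones, as given above, and was 1.76 to 2.29 CPM in control myoblasts. Ptprc and Cd3e were at 0 in control myotubes, and Csf1r was at 0.753 ± 0.12 CPM there against 0.153 ± 0.045 and 0.163 ± 0.041 in myotubes of the overexpressor and of the knockout (SD, n = 3). The part of these transcripts in the result on Itgb2 was not tested.

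**Figure D2:**
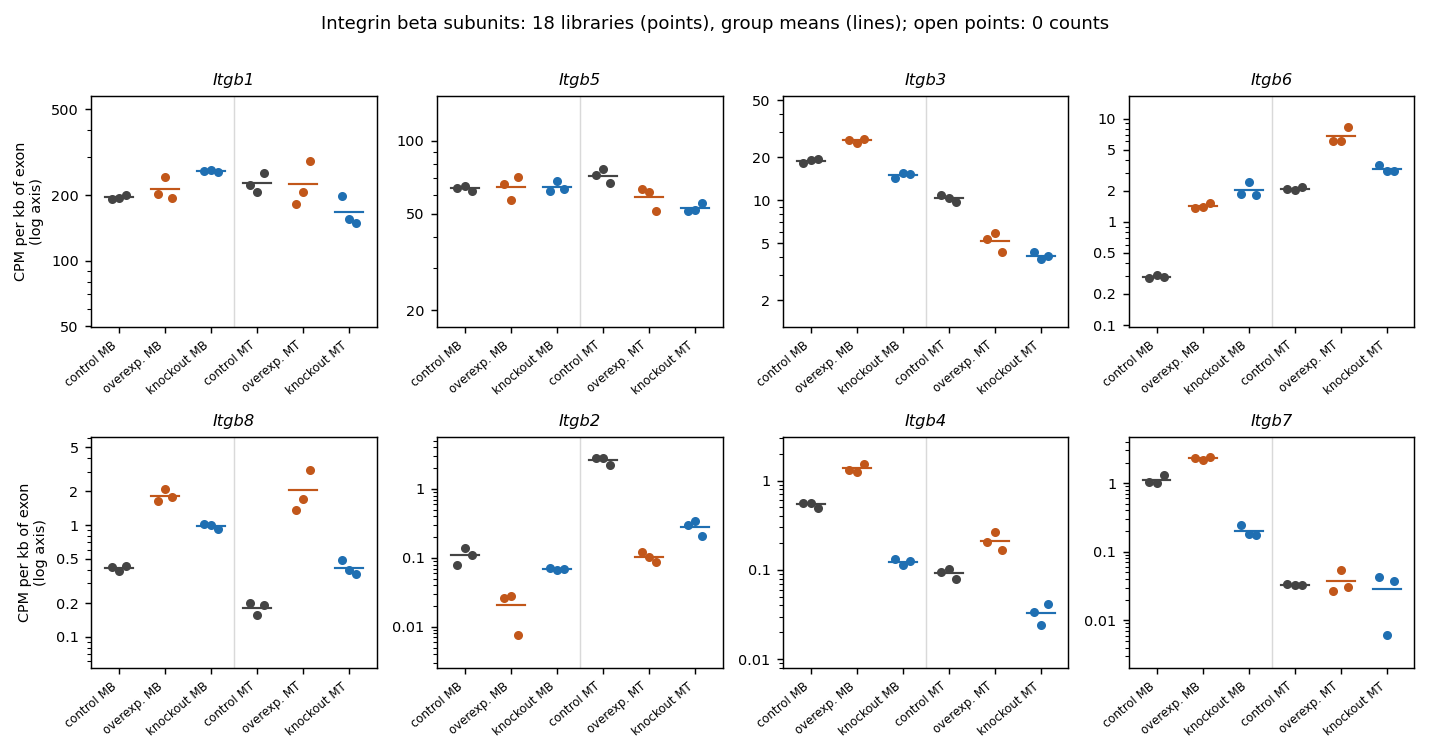
Levels of the 8 integrin beta genes in CPM per kilobase of exon (log axis) in the 18 libraries (points) with group means as lines, grey for control, orange for overexpressor and blue for knockout. Itgb1 is highest of the 8 in every group, Itgb2 is highest in control myotubes, and Itgb8 is highest in the overexpressor at both stages.

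Of the laminin alpha chains, Lama5, the widespread alpha 5 chain, led in every group, and Lama2, the chain of adult muscle basement membrane, was higher in both edited lines. Lama2 was at 1.42, 1.30 and 1.25 CPM per kilobase in control myoblasts, 7.29, 7.68 and 6.73 in those of the overexpressor and 6.47, 6.84 and 7.17 in those of the knockout. The edited lines overlapped with each other and not with the control, and the log2 fold changes over control were 2.45 ± 0.094 (adjusted p = 4.62e-13) and 2.37 ± 0.094 (adjusted p = 4.63e-13). In myotubes the control reached 2.25, 2.06 and 2.47, the overexpressor 5.81, 5.94 and 6.96 and the knockout 6.16, 6.20 and 5.27, with log2 fold changes of 1.46 ± 0.09 (adjusted p = 1.41e-10) and 1.38 ± 0.09 (adjusted p = 2.72e-10). The rise with differentiation in the control, 0.78 ± 0.091 (adjusted p = 6.22e-07), had no counterpart in the edited lines, where Lama2 was slightly lower in myotubes. The log2 changes there were -0.21 ± 0.088 (adjusted p = 0.043) and -0.22 ± 0.088 (adjusted p = 0.0389), and these calls were lost in 9 and 7 alternative analyses with an adjusted p of up to 0.194 and 0.374. The interactions were -0.99 ± 0.13 (adjusted p = 5.16e-06) and -0.99 ± 0.13 (adjusted p = 4.32e-06).

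Lama4 and Lama1 separated the lines by larger factors. Lama4, a chain of vascular and embryonic basement membranes that is also made in muscle, stood at 0.0931, 0.102 and 0.113 CPM per kilobase in control myoblasts, 0.0595, 0.0733 and 0.0479 in those of the overexpressor and 3.05, 2.87 and 2.87 in those of the knockout. The knockout was higher than the control by 4.84 ± 0.16 (adjusted p = 3.85e-14) on the log2 scale. In the control it rose with differentiation to 1.99, 1.49 and 1.53, by 4.03 ± 0.15 (adjusted p = 1.14e-13), and overexpressor myotubes reached only 0.257, 0.246 and 0.190, -2.85 ± 0.14 (adjusted p = 5.18e-12) relative to control. Knockout myotubes were at 2.25, 2.32 and 1.98, and the interaction for the knockout was -4.45 ± 0.20 (adjusted p = 6.98e-12). The 5 endothelial markers summed to 0.323 to 0.437 CPM in knockout myoblasts and 0.0385 to 0.2005 in control myoblasts, and 0 of the 2 tested were called there. Both tested markers were higher in control myotubes than in control myoblasts and lower in overexpressor than in control myotubes, as Lama4 was. Going the other way from Lama4, 1 was lower with differentiation of the overexpressor and 1 in knockout against control myotubes. The part of these markers in the results on Lama4 was not tested.

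Lama1, the alpha 1 chain of the early embryonic basement membrane, was a gene of control myotubes, at 0.933, 1.12 and 1.19 CPM per kilobase or 477, 475 and 639 counts. Control myoblasts held 21, 23 and 34 counts, and the rise was 4.32 ± 0.27 (adjusted p = 1e-10). Overexpressor myotubes held 8, 5 and 4 counts and knockout myotubes 14, 19 and 10, with log2 fold changes against control of -7.03 ± 0.33 (adjusted p = 3.41e-12) and -5.33 ± 0.29 (adjusted p = 2.21e-11). Overexpressor myoblasts held 0, 2 and 0 counts, lower than the control by a factor of 36.3 from the summed counts (95% counting interval 9.71 to 305). Lama5 stood at 28.2, 25.8 and 25.97 CPM per kilobase in control myoblasts, 36.9, 39.2 and 40.99 in those of the overexpressor and 13.9, 15.2 and 15.8 in those of the knockout, and the 3 groups did not overlap. On the log2 scale Lama5 differed from control by 0.55 ± 0.073 (adjusted p = 7.43e-06) and -0.83 ± 0.074 (adjusted p = 2.59e-08), and the difference between the overexpressor and the knockout was 1.38 ± 0.075 (adjusted p = 2.6e-11). In myotubes Lama5 stood at 33.2, 36.05 and 30.97 for the control, 26.9, 25.4 and 23.3 for the overexpressor and 16.5, 18.1 and 16.8 for the knockout, again with no overlap, but with the overexpressor below the control. The log2 differences from control were -0.41 ± 0.073 (adjusted p = 0.000109) and -0.96 ± 0.074 (adjusted p = 2.31e-09). Lama5 fell with differentiation in the overexpressor, by a log2 change of -0.63 ± 0.073, and rose in the control, by 0.32 ± 0.073, a call that was lost with library totals (adjusted p = 0.359). The interaction for the overexpressor was -0.96 ± 0.10 (adjusted p = 7.18e-07).

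The widespread laminin beta and gamma chains, Lamb1, Lamb2 and Lamc1, were lower in both edited sets of myotubes than in control myotubes. Lamb1 was at 37.2, 36.4 and 37.2 CPM per kilobase in control myotubes, 21.8, 24.1 and 21.1 in the overexpressor and 21, 22.2 and 19.1 in the knockout. Lamc1, the gamma chain of most laminins, was at 38.4, 41.1 and 37.9 in control myotubes and at 22.5 to 24.2 and 20.7 to 22.8 in those of the edited lines. Lamb2, the beta chain enriched at the neuromuscular junction, was at 40.4, 40.7 and 38.7 in control myotubes, against 20.1 to 21.2 in the overexpressor and 25.9 to 30.5 in the knockout. No edited library reached the control range for any of the 3 genes. The share of all genes that separate in this way is not given here. Among all tested genes, 30.9% were lower in overexpressor and 37% in knockout than in control myotubes at adjusted p under 0.05. The log2 fold changes of Lamb1, Lamb2 and Lamc1 against control myotubes were -0.73 ± 0.06, -0.95 ± 0.071 and -0.74 ± 0.054 in the overexpressor and -0.83 ± 0.061, -0.53 ± 0.071 and -0.86 ± 0.054 in the knockout. The median over all tested genes moved by 0.108 and 0.128 in these comparisons under DESeq2's size factors and by 0.145 and 0.048 with library totals, less than the smallest of these differences. In myoblasts the differences of these genes from control that passed the test lay between -0.60, for Lamb2 in the knockout, and 0.38, for Lamb1 in the overexpressor, on the log2 scale.

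The change with differentiation had opposite signs for Lamc1. This gene rose in the control, from a range of 30.5 to 31.7 to one of 37.9 to 41.1 CPM per kilobase, and fell in the overexpressor and the knockout. The log2 changes were 0.33 ± 0.053, -0.62 ± 0.054 and -0.51 ± 0.054, and the interactions -0.95 ± 0.076 (adjusted p = 1.4e-08) and -0.84 ± 0.076 (adjusted p = 6.49e-08). With library totals in place of the TMM factors the rise in the control was no longer called (log2 change 0.085, adjusted p = 0.192). Lamb1 rose in the control by 0.92 ± 0.061 (adjusted p = 2.19e-10), and the interactions were -1.11 ± 0.085 (adjusted p = 9.01e-09) and -0.95 ± 0.085 (adjusted p = 5.71e-08).

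Lamb3, a beta chain that joins the alpha 3 chain in the laminin of epithelial anchoring filaments, was higher in the overexpressor, while Lama3 itself had 9 to 13 counts in overexpressor myoblasts and 0 to 7 in the other libraries. Lamb3 was at 21.7, 19.4 and 22.7 CPM per kilobase in overexpressor myoblasts, 3.65, 3.79 and 4.04 in control myoblasts and 1.81, 1.82 and 1.89 in those of the knockout. Relative to control the log2 differences of Lamb3 were 2.48 ± 0.12 (adjusted p = 6.63e-12) and -1.06 ± 0.11 (adjusted p = 3.65e-07), and the 3 groups were separate. It fell with differentiation in the control and the overexpressor, with log2 changes of -1.17 ± 0.12 and -1.47 ± 0.11, and overexpressor myotubes stayed above the control at 8.45, 7.22 and 7.32 against 1.60, 2.04 and 1.48, a log2 difference of 2.17 ± 0.12 (adjusted p = 2.14e-11). The epithelial marker sums given with Itgb6 were lower in overexpressor than in control myoblasts and higher in overexpressor than in control myotubes. The 1 marker tested was called lower in the myoblasts and was not called in the myotubes. The part of these markers in the result on Lamb3 was not tested.

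Lamc3, the gamma 3 chain, was higher in myotubes, with 99, 54 and 69 counts for the control, 279, 264 and 240 for the overexpressor and 88, 68 and 58 for the knockout. Control myoblasts held 6, 1 and 1 counts, overexpressor myoblasts 0, 0 and 2 and knockout myoblasts 3, 18 and 9. From the summed counts the rise in the overexpressor was by a factor of 249 (95% counting interval 68.8 to 2060). Overexpressor myotubes were above control myotubes for Lamc3 as well, by a log2 difference of 1.30 ± 0.29 (adjusted p = 0.000949).

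**Figure D3:**
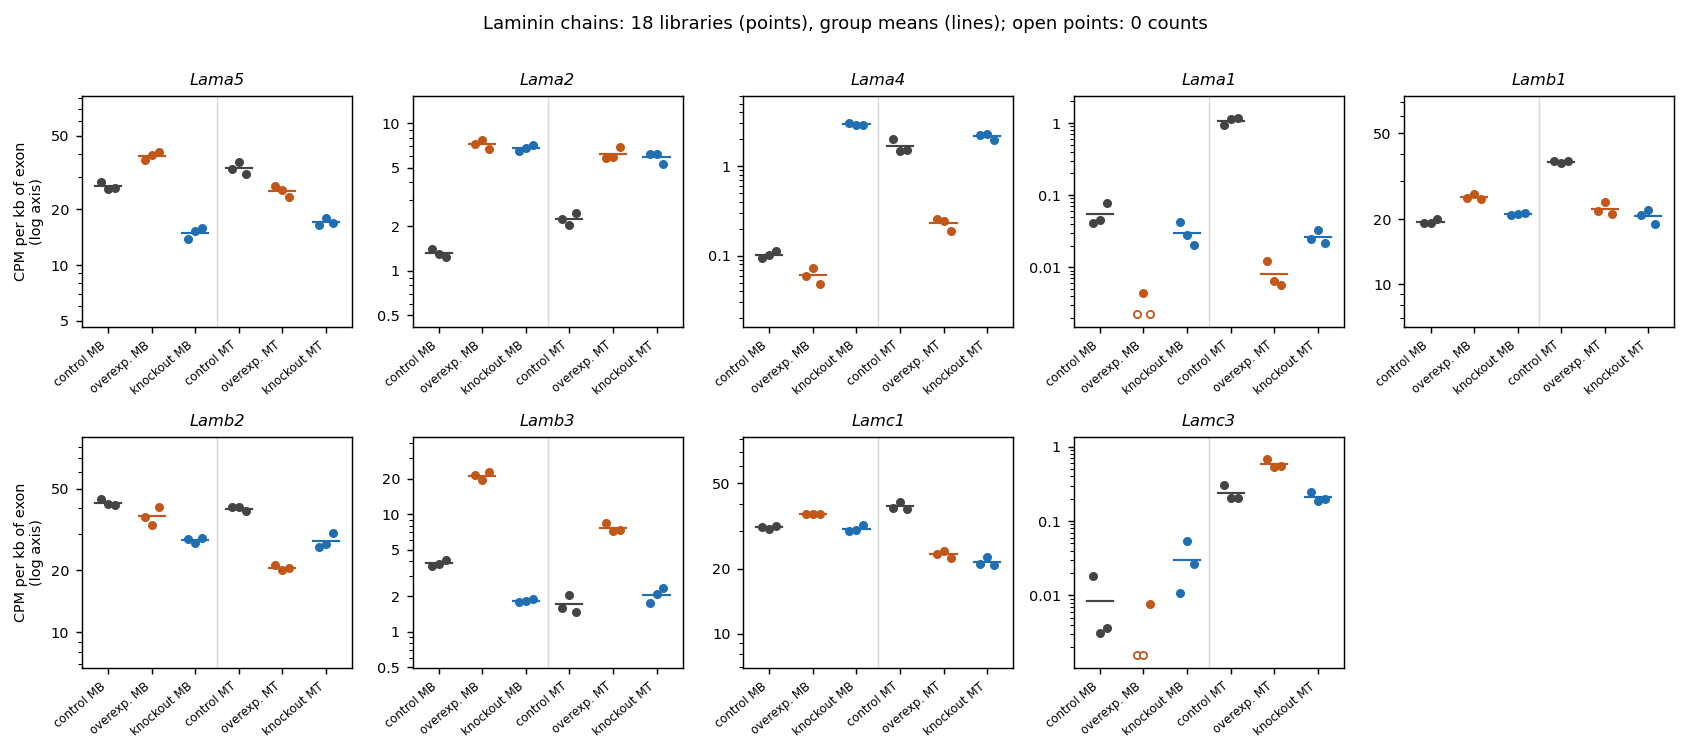
Levels of 9 laminin genes in CPM per kilobase of exon (log axis) in the 18 libraries (points; open points mark 0 counts and are drawn below the lowest value), with group means as lines where every library had counts. Lamb1, Lamb2 and Lamc1 are lower in both edited sets of myotubes than in control myotubes, and Lamb3 is highest in the overexpressor at both stages.

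Within each chain class the mix differed between lines, as the plot of chain shares shows. Lama2 and Lama4 together with Lama5 made up nearly all of the laminin alpha level. The Lama2 share was 4.7% ± 0.12 in control myoblasts, 15.6% ± 1.4 in those of the overexpressor and 27.6% ± 0.14 in those of the knockout (SD, n = 3), and the Lama4 share 0.4% ± 0.05, 0.1% ± 0.028 and 11.9% ± 1. In knockout myoblasts the Lama5 share was down to 60.4% ± 1.1 from 94.7% ± 0.051 in the control. These shares depend on the gene length used. With the length of the longest transcript the Lama2 shares were 7.69%, 23.9% and 35.7% in the same order of lines, the Lama4 shares 0.704%, 0.234% and 18.1%, and the Lama5 share in knockout myoblasts 46.1%, against 91.4% in the control. Lamb3 made up 25.5% ± 0.81 of the beta chains in overexpressor myoblasts and 15.1% ± 1.2 in overexpressor myotubes, against 5.8% ± 0.39 and 2.2% ± 0.36 in the control.

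**Figure D4:**
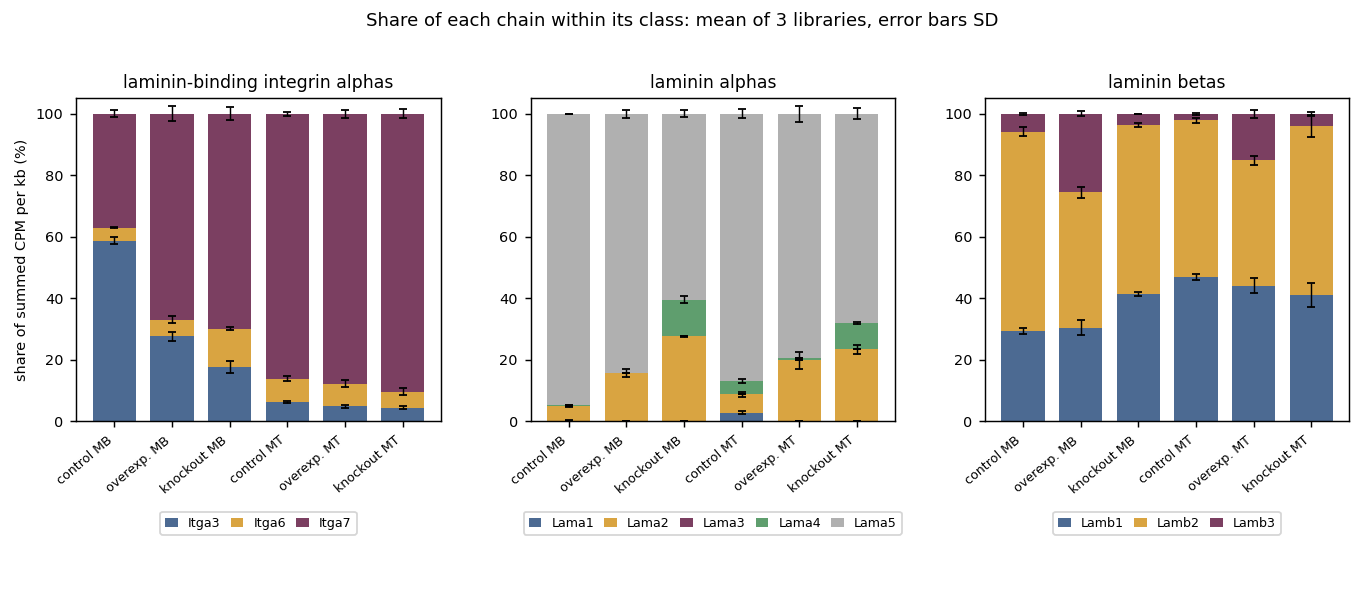
Share of each chain in the summed level (CPM per kilobase) of its class in percent, for the laminin-binding integrin alphas and the laminin alphas and betas, as the mean of 3 libraries with SD error bars. Itga3 holds 58.8% of the first class in control myoblasts and at most 27.65% elsewhere, and Lamb3 holds larger shares of the betas in the overexpressor than in the control.

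Counted by comparison, the members are set beside the share of all 17912 tested genes that passed the test in the same direction. In overexpressor against control myoblasts, 15 of the 33 members were higher and 10 lower, against 20.7% and 19.7% of all genes (40.4% in either direction). In knockout against control myoblasts 12 were higher and 11 lower, against 26.4% and 26.6% (53%). Between the overexpressor and the knockout in myoblasts 14 were higher and 11 lower, against 25.7% and 26.9% (52.6%). The member medians on the log2 scale were 0.12, -0.026 and 0.082, beside 0.015, 0.019 and -0.022 over all genes.

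The edited lines were also set directly against each other in myoblasts. Lamb3, Itgb7 and Itgb4 were higher in the overexpressor, by log2 differences of 3.53 ± 0.12, 3.51 ± 0.23 and 3.47 ± 0.18. Itga11 and Lama4 were lower, by -6.99 ± 0.32 and -5.60 ± 0.17. Itga10 was higher by 2.62, and Itga4 and Itgb2 lower, at -2.57 and -1.67. The value for Itgb2 rests on 1 to 4 counts per library in overexpressor myoblasts. Lama1 was lower in the overexpressor by a factor of 20 from the summed counts (95% counting interval 5.21 to 170).

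In overexpressor against control myotubes 12 members were higher and 14 lower, against 26.2% and 30.9% of all genes (57.1%). In knockout against control myotubes 10 were higher and 16 lower, against 31% and 37% (68%). Between overexpressor and knockout myotubes 17 were higher and 8 lower, against 30.6% and 29.1% (59.7%). Of the 23 tested integrins, 13 were higher in overexpressor than in knockout myotubes and 5 lower, among the higher ones Itga10, Itgb8, Itgb4 and Itgav with log2 differences of 2.15, 2.31, 2.69 and 1.31. Itga11 and Lama4 were lower in overexpressor than in knockout myotubes, at -3.81 and -3.24, and Lamb3 was higher, at 1.89. The member medians were 0.12, -0.28 and 0.36, beside -0.037, -0.068 and 0.021 over all genes.

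With differentiation, 19 members were higher and 9 lower in the control, against 33.9% and 28.8% of all genes (62.8%). In the overexpressor 15 were higher and 12 lower, against 29.8% and 33% (62.8%), and in the knockout 11 were higher and 15 lower, against 29.8% and 35.6% (65.4%). Of the 10 laminins, 8 were higher and 1 lower in myotubes of the control, against 4 and 6 for the overexpressor and 3 and 3 for the knockout. The member medians were 0.61, 0.44 and -0.16, beside 0.07, -0.023 and -0.075.

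The interaction, which tests whether the response to differentiation differed from that of the control, was lower for 15 members and higher for 6 in the overexpressor, against 22.3% and 16.6% of all genes (39%). In the knockout it was lower for 18 and higher for 5, against 29.9% and 20.2% (50.1%). The member medians were -0.56 and -0.83 and those of all genes -0.051 and -0.12, and both interactions share the control libraries. Of the 10 tested laminins, 7 had a lower response in the overexpressor and 0 a higher one, and 7 a lower and 1 a higher one in the knockout, Lamb3. The lower ones included Lama2, Lama4, Lamb1 and Lamc1 in both edited lines, Lama5 and Lamb2 in the overexpressor and Lama1 and Lamc3 in the knockout.

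**Figure D5:**
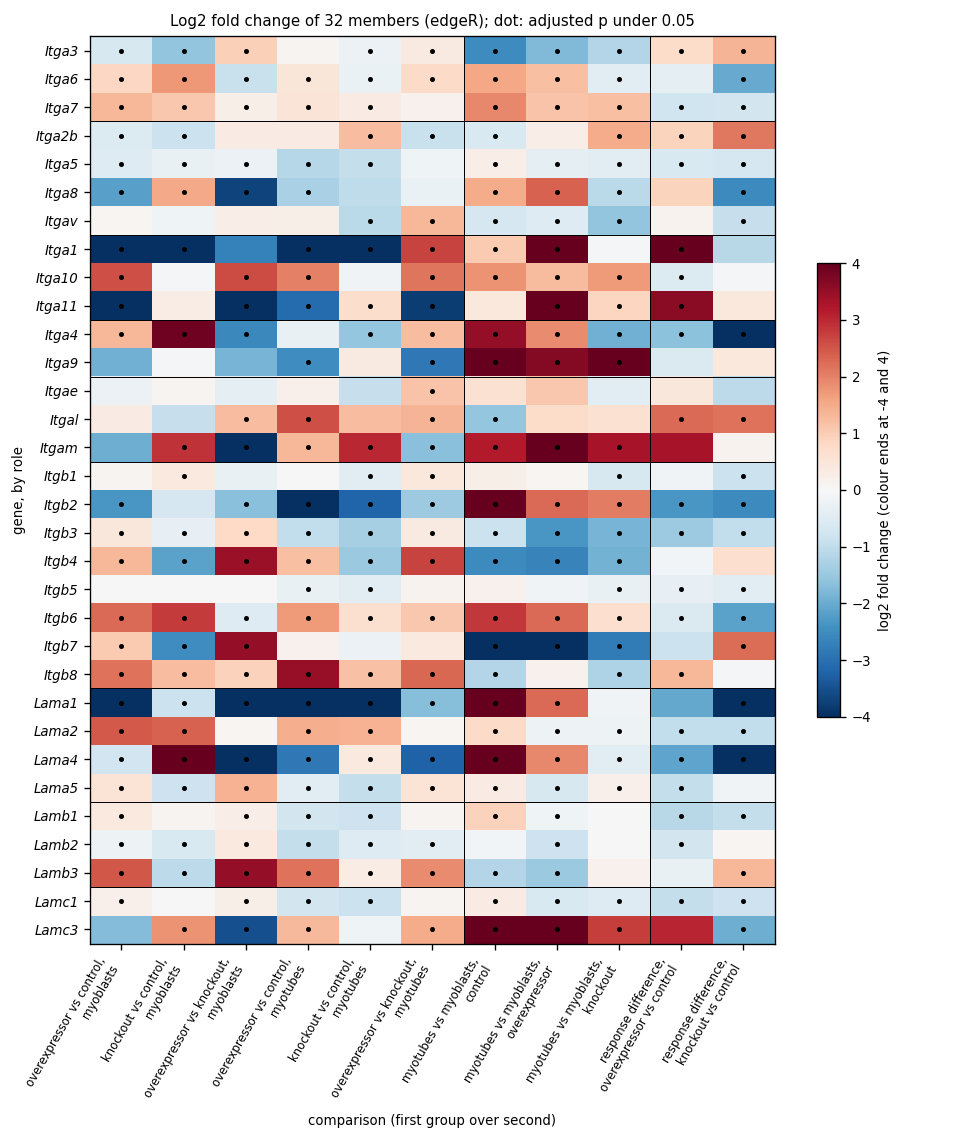
Log2 fold change (colour, ending at -4 and 4) of 32 members (rows, by role) in the 11 comparisons (columns), with a dot where the adjusted p was under 0.05. The last 2 columns are the differences in response, where 14 of 20 members with a dot in the overexpressor and 17 of 22 in the knockout are lower than in the control.

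The other genes of the pathway, in 5 lists that include the intracellular activators, the adhesion plaque and the ligands, numbered 66, of which 62 were tested. In overexpressor myotubes 10 were higher than in control myotubes and 39 lower (79% of the list called, against 57.1% of all genes), and in knockout myotubes 18 were higher and 36 lower (87.1%, against 68%). Of the 15 tested ligands other than laminins, 12 were lower and 2 higher in overexpressor myotubes, and 13 lower and 1 higher in knockout myotubes, 93.3% of the list in each. Their medians were -1.56 and -1.90 on the log2 scale, beside the medians of all genes given above. Col1a1, which encodes a chain of collagen I, a ligand of integrin alpha 11, had the lowest value in the overexpressor, with log2 fold changes of -6.31 ± 0.22 (adjusted p = 2.96e-12) in myoblasts and -3.97 ± 0.19 (adjusted p = 7.07e-11) in myotubes. Spp1, which encodes osteopontin, had the lowest value in knockout myotubes, at -2.81 ± 0.16 (adjusted p = 2.01e-10). Npnt, which encodes nephronectin, a ligand of alpha 8, was higher in overexpressor and knockout myotubes by 1.52 ± 0.076 (adjusted p = 7.59e-12) and 1.18 ± 0.075 (adjusted p = 2.01e-10).

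Among the activators, which bind the beta tail from inside, 4 of 5 were tested. Tln2, the talin of mature muscle, was lower in both edited lines at both stages, with log2 changes of -1.49 ± 0.075 and -1.26 ± 0.074 in myoblasts and -1.22 ± 0.074 and -0.77 ± 0.074 in myotubes. Of the 22 plaque and signalling genes, 6 were higher and 3 lower in overexpressor myoblasts, or 40.9% against 40.4% of all genes, a share near that of all genes. In knockout myoblasts 5 were higher and 10 lower, or 68.2% against 53% of all genes, and Ptk2b, a kinase related to focal adhesion kinase, had the lowest value, at -2.43 ± 0.098 (adjusted p = 5.93e-13). In myotubes 4 were higher and 11 lower in the overexpressor (68.2%, against 57.1% of all genes) and 7 higher and 12 lower in the knockout (86.4%, against 68%), with Parvg, a parvin, at the bottom in both, at -4.67 and -2.44.

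Of the 10 integrin-binding proteins, Itgb1bp2, which encodes melusin, a muscle protein that binds the beta 1 tail, had the largest changes on differentiation of the control and between knockout and control myoblasts. It rose with differentiation in the control, by 7.19 ± 0.16 (adjusted p = 4.25e-16) on the log2 scale, and was higher in knockout than in control myoblasts by 6.12 ± 0.16 (adjusted p = 3.06e-15). Cd47, a membrane partner of beta 3 integrins, was lower in both sets of edited myotubes, with log2 changes of -1.99 ± 0.068 (adjusted p = 5.12e-14) and -1.93 ± 0.068 (adjusted p = 6.45e-14). Of the 11 tested basement membrane partners and other laminin receptors, 3 were higher and 7 lower in overexpressor myotubes (90.9%, against 57.1% of all genes) and 7 higher and 4 lower in knockout myotubes (100%, against 68%). Bcam, a receptor of the laminin alpha 5 chain, had the highest value in both, at 1.51 ± 0.17 (adjusted p = 8.67e-07) and 1.88 ± 0.17 (adjusted p = 5.35e-08), and Nid2, which links laminin to collagen IV, the lowest in overexpressor myoblasts, at -1.45 ± 0.069 (adjusted p = 7.22e-12).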

How the data were processed

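PolyA RNA of 18 libraries was sequenced on an Illumina instrument, per the labels' protocols. The deposited table holds raw read counts per Ensembl gene ID, made by the authors. Per the submitters' processing notes the tools were STAR 2.7.9a, featureCounts, Subread 2.0.3, FastQC 0.11.7 and DESeq2 1.32.0 with the mm10 build, and neither the annotation release nor the strand setting is given in the sources used here. A deposited table of variance-stabilised values was not used. Symbols, exon lengths and overlaps came from GENCODE M21 on GRCm38, which matched 55190 of the 55450 IDs. The 260 others held 0.00589% of the counts.

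Counts were tested with edgeR 4.0.16 (quasi-likelihood, robust, TMM factors of 0.895 to 1.08, filterByExpr by group) in R 4.3.3, in 1 fit of all 18 libraries with 6 group coefficients and 12 residual degrees of freedom. The p-values of 11 contrasts were adjusted by Benjamini-Hochberg over the 17912 genes tested, with a threshold of 0.05. Differences in response are interactions of line and stage. The script was tested on simulated data with known changes. Levels per kilobase use the union of exons. Alternatives were DESeq2 1.42.0 (its size factors and its Wald test), library totals, no filter, only the groups compared, the replicate letter as a block, each library left out, the length of the longest transcript and CPM without TMM factors. The members, the gene lists and the comparisons were chosen with earlier results of these data known. The shares and the level of 0.5 CPM per kilobase were chosen after the levels were seen. The members are named with a level or a highest count, except 1 that is counted but not reported here. Fold changes are printed only where the test was passed, and those resting on few counts are mostly given with counts or as ratios. In the pathway lists the genes named have the largest changes.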

Additional observations from a re-analysis of the deposited data

Results flagged for a closer look

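The response to differentiation, meaning the log2 change from myoblast to myotube, differed from that of the control for 21 members in the overexpressor and for 23 in the knockout, by the interaction term of edgeR's quasi-likelihood test with adjusted p under 0.05. Both sets of differences rest on the same control libraries. In the overexpressor 15 members had a lower response than in the control on the log2 scale, among them Itgb2 by -2.34, Lama4 by -2.10, Itga4 by -1.63, Itgb3 by -1.45, Lamb1 by -1.11, Lama2 by -0.99, Lama5 by -0.96, Lamc1 by -0.95, Itga7 by -0.80, Lamb2 by -0.74, Itga5 by -0.62, Itgb6 by -0.57, Itga10 by -0.56 and Itgb5 by -0.32. The other 6 had a higher response: Itga1 by 4.33, Itga11 by 3.61, Itgal by 2.27, Itgb8 by 1.33, Itga2b by 0.88 and Itga3 by 0.75. Calls lost under at least 1 alternative were those of Itga10 (adjusted p up to 0.0518), Itga1 (adjusted p up to 0.0688), Itgal (adjusted p up to 0.0661), Itgb5 (adjusted p up to 0.44) and Itgb6 (0.11). The value for Itga1 rests on a group with 0 counts, overexpressor myoblasts, and so on the fit rather than on a measured ratio. For Itgb2 the same group held 1 to 4 counts per library.

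In the knockout 18 members had a lower response, among them Itga4 by -5.43, Lama1 by -4.47, Lama4 by -4.45, Itgb2 by -2.55, Itga8 by -2.54, Itgb6 by -2.15, Itga6 by -2.01, Lamc3 by -1.97, Itgb3 by -1.0, Lama2 by -0.99, Lamb1 by -0.95, Itgav by -0.91, Itgb1 by -0.85, Lamc1 by -0.84, Itga7 by -0.73, Itga5 by -0.68 and Itgb5 by -0.47. The remaining 5 were higher: Itgb7 by 2.25, Itgal by 2.17, Itga2b by 2.11, Itga3 by 1.34 and Lamb3 by 1.34. Among these, calls lost under an alternative were those of Itgal (adjusted p up to 0.0985), Itgb5 (adjusted p up to 0.0747), Itgb7 (adjusted p up to 0.0538) and Lamc3 (0.206, without knockout myoblast replicate B, where its difference was -1.28). The knockout myoblasts held myotube marker transcripts at 9417 to 12030 CPM, against 252 to 385 in control myoblasts, and their part in the differences of the knockout was not tested.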

How the results depend on the processing

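The 22 counts of members called higher or lower stayed within 1.5 times of their value under all 288 alternatives computed for them, and changed by at most 4 genes, with library totals. Of 275 called pairs of a member and a comparison, among 363, none changed direction and 45 lost the call under at least 1 alternative, 19 of these being at least 2-fold. Leaving out 1 library ended 38 of these calls. DESeq2's size factors ended 11, library totals 10, no filter on low counts 10, the DESeq2 Wald test 11 and the fit of only the groups compared 11. The cause was not tested. Leaving out 1 library moved 18 called fold changes, of Itga1, Itga8, Itga9, Itgam, Lama1 and Lamc3, by over 1.5 times, all of them with few counts in 1 of the groups. Size factors or library totals shifted the median of all genes by more than 0.1 in 6 comparisons, most for the control's differentiation (-0.238 with library totals). The replicate letters gave no clear sign of pairing. Of 45 correlations between libraries of the same letter, 4 exceeded 0.1 (range -0.358 to 0.264). In 10 of the 45 the library correlated better with its own letter than with the 2 other libraries of that group. Such correlations cannot exclude that samples of the same letter were handled together. With the letter as a replicate block 9 calls were lost and no count of members changed by more than 2 genes. Genes with few counts, such as Itga9 and Itgae, limit what the depth can show.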
